A study of Gallus gallus with 6 samples.

Results

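Markers of macrophages and other phagocytes, 9 of the 13009 genes with a name on the array, were followed in cells of the chicken bursa of Fabricius: CSF1R, SPI1, CD36, MARCO, CYBB, LYG2, S100A12, FABP4 and FABP5. Every probe set whose only gene symbol in the platform annotation was one of these names was taken, which gave 15 of 38439 probe sets. One further probe set carried the symbols CSF1R and FLT4 together and was left out. The tested arrays held RNA of bursal cells from 3-week-old line 0 chickens that had been cultured overnight on DF-1 cells, a line of chicken embryo fibroblasts, that expressed stem cell antigen 2 with a Flag tag (SCA2, which LY6E encodes). The control arrays held bursal cells of the same kind of bird kept overnight on DF-1 cells with the vector. In both groups 2000000 cells were plated at 37 °C in medium with 4% serum, the loose cells were washed off the attached monolayer, and biotinylated probe for Affymetrix chicken arrays was made from 10 µg of RNA. There were 3 SCA2 arrays and 3 control arrays, numbered as in the sample titles. The number of birds behind each culture, the promoter of the SCA2 construct and whether the DF-1 lines were single clones are not stated in the labels.

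Macrophages depend on the growth factor receptor CSF1R and on the transcription factor SPI1 (PU.1), which opens the myeloid programme and is also needed in B cells. Their surface carries scavenger receptors, their phagosomes hold an oxidase that makes superoxide, and their granules and secretions contain lysozymes and small calcium-binding proteins. Lipid taken up by the scavenger receptor CD36 is carried inside the cell by fatty acid binding proteins, of which FABP4 and FABP5 are the forms best known from mammalian macrophages. None of these genes is limited to macrophages: in mammals CD36 and FABP4 are also genes of fat cells and capillary endothelium, FABP5 of epithelium, S100A12 of neutrophils, and SPI1 and CYBB of B cells. The bursa, an organ filled with developing B cells, also holds macrophages and secretory dendritic cells.

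Of the 9 genes, 8 were lower on the SCA2 arrays, 0 were higher and MARCO did not pass the test. The test was limma with Benjamini-Hochberg adjustment over all probe sets at 0.05, applied to the probe set of each gene with the highest mean. Over the named genes taken in this way, 20.8% were called lower and 26.2% higher. All 8 lowered genes had groups that did not overlap, which was the case, with the lower values on the SCA2 arrays, for 28.7% of named genes. Counted by probe set, 12 of 15 were called lower, against 17.1% of all probe sets, and 0 were called higher, against 18.2%. In 11 of the 15 the groups did not overlap and SCA2 was lower, against 25.9% of all probe sets. The median change of the 9 genes was -2.01 on the log2 scale, against -0.01 for all named genes. The 9 genes were chosen with earlier results of these data known. The shares beside their counts are therefore description and no test of the set. A two-sided exact permutation test of each gene alone, which cannot go below 0.1 with 3 against 3 arrays, gave p = 0.1 for the 8 lowered genes and p = 0.9 for MARCO. Fewer cells of a type and less RNA per cell cannot be told apart in such bulk RNA, and intensities were scaled so that each change is relative to the rest of the array.

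**Figure D1:**
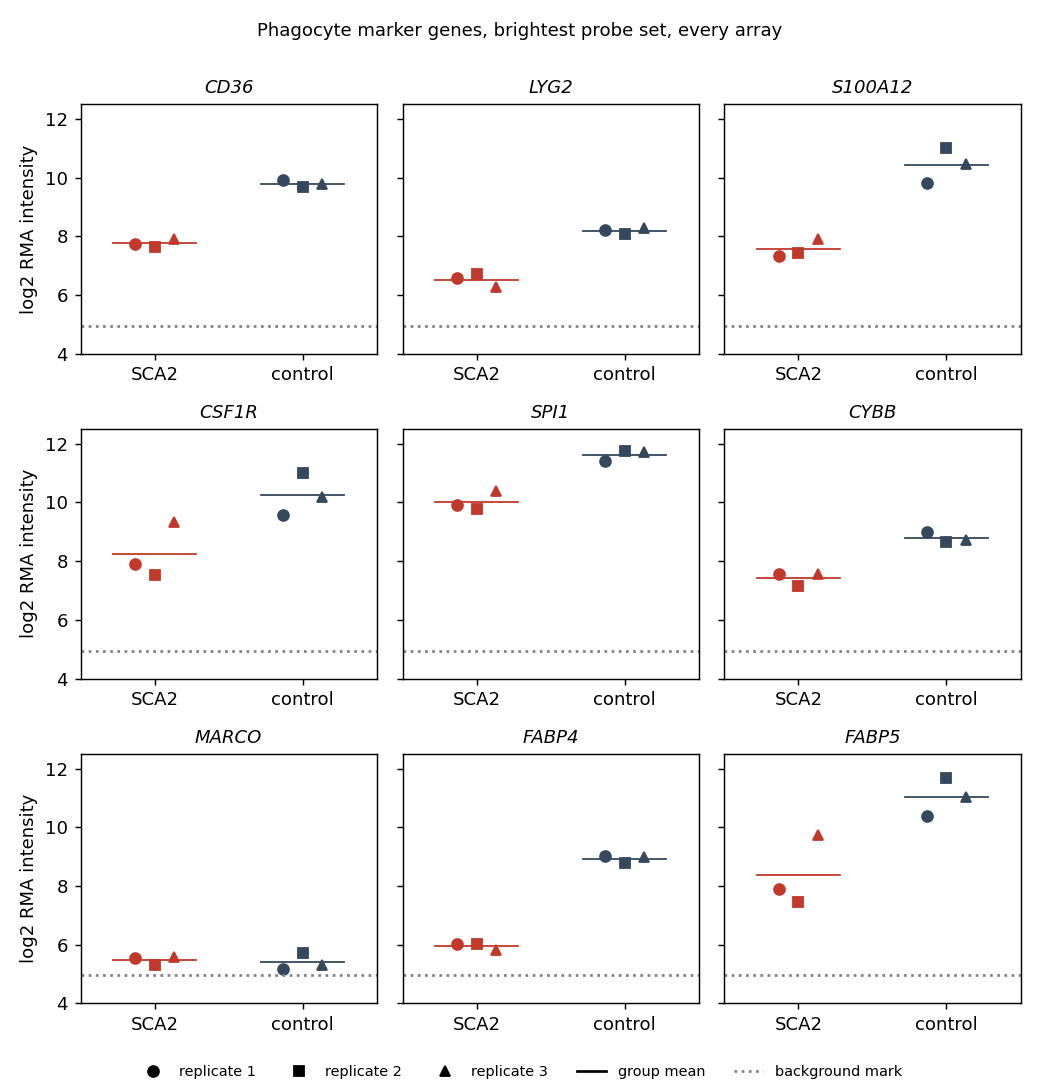
Log2 RMA intensity (y axis) of the brightest probe set of each of the 9 genes, with SCA2 arrays in red on the left and control arrays in dark blue on the right of each panel. Symbols give the replicate, short lines the group means and the dotted line the background mark of 4.95, and in every panel but that of MARCO all 3 SCA2 arrays lie under all 3 control arrays.

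The deposited values, already scaled by RMA, had median intensities between 51.2 and 53.1, which says little about the arrays themselves. Pearson correlations of log2 intensity over all probe sets were 0.995 to 0.997 within the SCA2 group, 0.99 to 0.995 within the control group and 0.962 to 0.98 across them. All 27 probe sets for spiked hybridization controls were called lower on the SCA2 arrays (limma, Benjamini-Hochberg), with changes of -1.74 to -0.68 on the log2 scale, as were 27 of 36 for poly-A controls, whose changes over all 36 lay between -1.25 and -0.30. The difference between the 3′ and 5′ probe sets of actin, a sign of RNA integrity, lay between -0.16 and 0.39 (log2) on SCA2 arrays and between 0.20 and 0.96 on control arrays, where control 2 was highest. The same difference for GAPDH did not overlap, at -0.13 to -0.047 on SCA2 arrays and 0.025 to 0.088 on control arrays. The part of these measures in the changes below was not tested. Background was marked at a log2 intensity of 4.95, under which 95% of the values of 746 probe sets lay whose names are not those of chicken transcript clusters.

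CSF1R, the receptor through which CSF1 and IL34 keep macrophages alive, had log2 intensities of 7.92, 7.52 and 9.33 on SCA2 arrays 1, 2 and 3, against 9.59, 10.9996 and 10.20 on control arrays 1, 2 and 3. SCA2 3 stood far above the other SCA2 arrays and came within 0.26 of the lowest control array. The change was -2.01 (SE 0.51, 95% interval -3.21 to -0.80; limma, Benjamini-Hochberg adjusted p = 0.0202), or 0.249 times the control level. A second probe set gave 6.20, 6.01 and 7.37 on SCA2 arrays, against 7.31, 8.01 and 7.70 on control arrays. Here SCA2 3 lay inside the control range, and the change was -1.15 (SE 0.36; limma, Benjamini-Hochberg adjusted p = 0.0413). The remaining 2 probe sets of the gene were under the background mark on all 6 arrays, with changes of -0.64, which passed the test, and -0.17, which did not. With the mean of all 4 probe sets the change of CSF1R was -0.99. Without SCA2 1, SCA2 2, control 2 or control 3 the call was lost (limma, Benjamini-Hochberg adjusted p = 0.0692, 0.0577, 0.0597 and 0.0551), with changes between -2.04 and -1.64, and it was lost as well with array weights (0.0510), with a variance trend and robust fit (0.0681) and without moderation of the variance (0.112).

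SPI1, the transcription factor PU.1, gave 9.90, 9.76 and 10.41 on SCA2 arrays, against 11.43, 11.77 and 11.70 on control arrays. Its second probe set gave 9.75, 9.51 and 10.14 on SCA2 arrays, against 11.17, 11.53 and 11.42 on control arrays. Both sets separated the groups by more than a log2 unit, and both had SCA2 3 as the highest SCA2 array and control 2 as the highest control array. The changes were -1.61 (SE 0.18, 95% interval -2.03 to -1.19; limma, Benjamini-Hochberg adjusted p = 4.7e-04) and -1.57 (SE 0.17), or 0.327 and 0.336 times the control level.

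CD36, the scavenger receptor that binds oxidised lipoproteins and long-chain fatty acids, gave 7.75, 7.64 and 7.92 on SCA2 arrays, against 9.90, 9.67 and 9.77 on control arrays. The arrays of a group lay within 0.28 (log2) of each other. Its change was -2.01 (SE 0.10, 95% interval -2.25 to -1.77; limma, Benjamini-Hochberg adjusted p = 3.2e-05), or 0.248 times the control level. The other CD36 probe set, at 6.77, 6.94 and 7.18 on SCA2 arrays and 9.33, 9.25 and 9.26 on control arrays, changed by -2.32 (SE 0.11), which placed it 40th among the most lowered of the 38439 probe sets.

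MARCO, a class A scavenger receptor that takes up bacteria in tissue macrophages, was the gene that was not called. It gave 5.55, 5.31 and 5.57 on SCA2 arrays, against 5.17, 5.72 and 5.31 on control arrays. All 6 values were above the background mark by at most 0.76 (log2), and the groups overlapped. The change was 0.08 (SE 0.15, 95% interval -0.28 to 0.43; limma, Benjamini-Hochberg adjusted p = 0.733). That interval does not contain the changes of the other 8 genes. With a control mean of 5.40, close to the mark of 4.95, falls of their size may not be measurable at this probe set. Whether MARCO differed from the other genes can therefore not be decided here.

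CYBB, the catalytic subunit of the phagocyte oxidase, gave 7.58, 7.14 and 7.57 on SCA2 arrays, against 8.99, 8.64 and 8.71 on control arrays. The change was -1.35 (SE 0.15, 95% interval -1.70 to -1.0; limma, Benjamini-Hochberg adjusted p = 4.7e-04), or 0.392 times the control level, the smallest among the 8 called genes. LYG2, a goose-type lysozyme that cuts bacterial cell walls, gave 6.58, 6.73 and 6.25 on SCA2 arrays, against 8.21, 8.06 and 8.29 on control arrays. It was one of 2 called genes for which SCA2 3 was the lowest SCA2 array, the other being FABP4. The change of LYG2 was -1.66 (SE 0.13, 95% interval -1.97 to -1.35; limma, Benjamini-Hochberg adjusted p = 1.2e-04), or 0.316 times the control level.

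S100A12, a calcium-binding alarm protein of phagocytes whose RefSeq entry in the chicken also carries the name S100A9, gave 7.31, 7.44 and 7.90 on SCA2 arrays, against 9.80, 11.01 and 10.47 on control arrays. The control arrays spread over 1.20 (log2) and the SCA2 arrays over 0.59, while the gap between the groups was wider than either. Its change was -2.87 (SE 0.30, 95% interval -3.57 to -2.17; limma, Benjamini-Hochberg adjusted p = 3.6e-04), or 0.137 times the control level, the 10th most lowered probe set of the array.

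FABP4 and FABP5, carriers of fatty acids that are neighbours in the chicken genome with 1 gene, FABP9, between them in RefSeq's GRCg7b assembly, were both among the most lowered. FABP4 gave 6.01, 6.04 and 5.84 on SCA2 arrays, against 9.01, 8.78 and 8.99 on control arrays. The groups lay almost 3 log2 units apart with a spread of 0.21 and 0.23 inside them. This was a change of -2.97 (SE 0.10, 95% interval -3.19 to -2.74; limma, Benjamini-Hochberg adjusted p = 1.1e-05), or 0.128 times the control level, the 8th most lowered probe set. FABP5 gave 7.89, 7.46 and 9.74 on SCA2 arrays, against 10.40, 11.68 and 11.05 on control arrays. Its arrays differed widely, and SCA2 3 lay 0.65 below the lowest control array. The change was -2.68 (SE 0.59, 95% interval -4.07 to -1.28; limma, Benjamini-Hochberg adjusted p = 0.0112), or 0.156 times the control level. Leaving out 1 array at a time gave changes between -3.37, without SCA2 3, and -2.22, without SCA2 2. The call was lost with a variance trend and robust fit and without moderation of the variance (limma, Benjamini-Hochberg adjusted p = 0.0530 and 0.0834). A second FABP5 probe set stayed between 3.34 and 3.59 on all arrays, under the background mark, and with the mean of both sets the change of FABP5 was -1.36. The probe sets used for FABP4 and FABP5 bear the manufacturer's suffix for sets that can match more than 1 transcript, so signal of a related transcript could not be separated here.

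**Figure D2:**
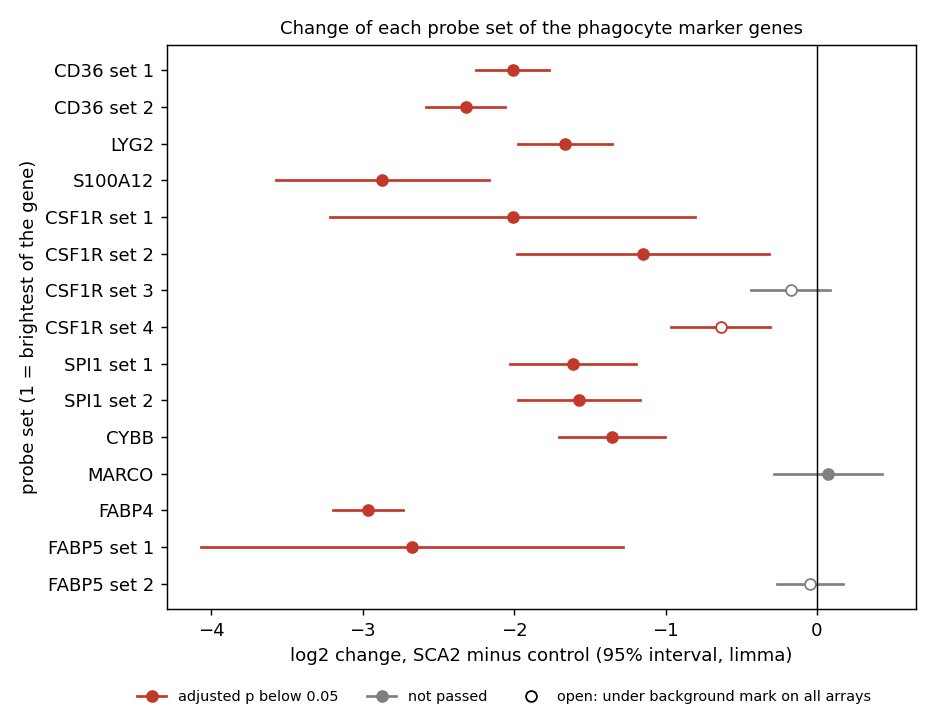
Log2 change, SCA2 minus control (x axis), of all 15 probe sets of the 9 genes (y axis), with 95% intervals from limma. Red marks an adjusted p below 0.05 and open circles mark probe sets under the background mark on all arrays; all 8 called genes have their brightest set between -2.97 and -1.35, while MARCO sits at 0.08.

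Other genes of the fatty acid binding family did not share one direction. FABP3, the heart form, had a log2 change of -1.60 (limma, SE 0.14, Benjamini-Hochberg adjusted p = 1.5e-04), with 5.97, 5.96 and 6.08 on SCA2 arrays against 7.31, 7.84 and 7.65 on control arrays. FABP7, the brain form, had a log2 change of 0.68 (limma, SE 0.10, Benjamini-Hochberg adjusted p = 0.0022), with 12.36, 12.43 and 12.35 on SCA2 arrays against 11.82, 11.49 and 11.79 on control arrays. The brightest set of FABP6 changed by -0.36. The probe sets of FABP1, FABP2 and FABP9 were under the background mark on all arrays. Values of FABP9 and the choice to show the family came after the data were seen.

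The 9 genes differed in how they varied inside the groups. FABP5, CSF1R, S100A12, SPI1 and MARCO were highest on SCA2 3 among the SCA2 arrays and on control 2 among the control arrays, though MARCO was almost level on SCA2 1 and SCA2 3. This order was found in 13.01% of all named genes and in 29.8% of those called lower. The pooled within-group standard deviation was 0.97 (log2) for FABP5, 0.84 for CSF1R and 0.48 for S100A12, above that of 99.8%, 99.6% and 98.1% of all probe sets. For SPI1 (0.27), MARCO (0.23), CYBB (0.22) and LYG2 (0.19) it was above that of 91.6%, 85.8%, 84.8% and 77.0%, and for CD36 (0.13) and FABP4 (0.12) above that of 50.7% and 44.7%. Relative to their group means, FABP5 stood at -0.47, -0.91 and 1.38 on SCA2 arrays 1 to 3 and at -0.64, 0.64 and 0.01 on control arrays 1 to 3. CSF1R showed the same order, at -0.34, -0.74 and 1.07 on SCA2 arrays and at -0.68, 0.74 and -0.06 on control arrays. FABP4 stayed between -0.13 and 0.08 on SCA2 arrays and between -0.14 and 0.09 on control arrays.

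With SCA2 3 and control 2 both left out, 8 of the 9 genes were still called lower (limma, Benjamini-Hochberg). This choice was made after seeing that these genes were highest there. Of all 38439 probe sets, 3897 were then called lower, against 6565 with all 6 arrays. The change of FABP5 was then -3.05, that of CSF1R -2.18, that of S100A12 -2.75 and that of SPI1 -1.73. Since the arrays were chosen by the values of these genes, the smaller spread that remains is no evidence of precision.

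**Figure D3:**
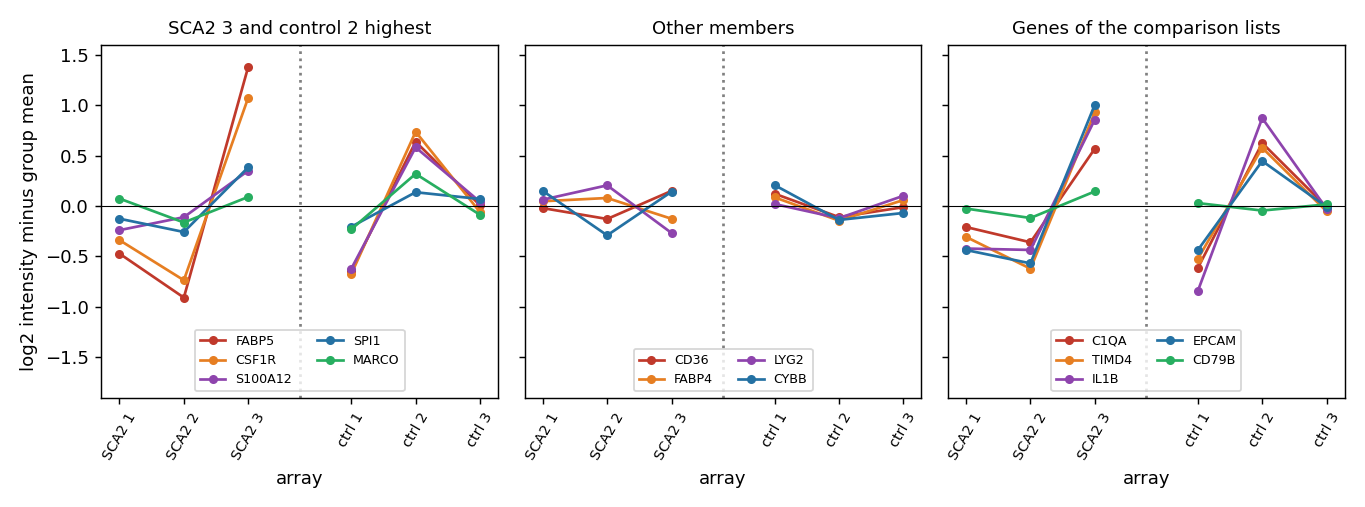
Log2 intensity minus the mean of the array's own group (y axis) on each of the 6 arrays (x axis; ctrl is control), for the 5 genes highest on SCA2 3 and control 2 (left), the other 4 (middle) and 5 genes of the comparison lists chosen after their values were seen (right). FABP5 reaches 1.38 on SCA2 3 while CD36, FABP4, LYG2 and CYBB stay within 0.3 of their group means, and C1QA, TIMD4, IL1B and EPCAM are highest on the same arrays as FABP5.

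Some other macrophage genes were also highest on SCA2 3 and control 2. This held for 8 of 16 macrophage core genes, though not TLR7 and LAPTM5, and for 12 of 19 phagocytic receptors and adaptors. In the other lists of related genes it held for 2 of 8 oxidase genes, 1 of 5 of the CSF receptor axis and 2 of 11 myeloid transcription factors. It held for 3 of 11 scavenger and pattern receptors, 7 of 24 lipid-handling genes and 8 of 22 granule, lysosome and secreted genes. Among markers of other cells it held for 10 of 13 of the bursal epithelium, more than in any list above, and for 6 of 14 of B cells. For T and NK cells it held for 0 of 11, for heterophils 1 of 3 and for dendritic cells 3 of 11. Erythroid and thrombocyte markers had 1 of 11, endothelium 4 of 15, adipocytes 1 of 12 and fibroblasts 2 of 19. All these counts stand against 13.01% of all named genes and 29.8% of those called lower. The 6 described here were singled out after their values were seen. C1QA, C1QB and C1QC, the chains of complement C1q that tissue macrophages secrete, changed by -1.22, -1.28 and -1.32. C1QA gave 6.90, 6.75 and 7.67 on SCA2 arrays, against 7.71, 8.95 and 8.32 on control arrays. TIMD4, a receptor for phosphatidylserine on dying cells, gave 8.11, 7.80 and 9.35 on SCA2 arrays, against 9.73, 10.83 and 10.20 on control arrays, a change of -1.83 (SE 0.43). IL1B, an inflammatory cytokine, changed by -2.21 (SE 0.49) and FCER1G, the signalling chain of Fc receptors, by -2.04 (SE 0.47). All 6 passed the test (limma, Benjamini-Hochberg adjusted p between 0.0112 and 0.0306), and all were highest on SCA2 3 and on control 2.

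Markers of the bursal epithelium varied over the arrays in the same order. The summed intensity of 13 epithelial markers was 3370, 3292 and 7107 on SCA2 arrays 1 to 3, against 10509, 20140 and 14011 on control arrays 1 to 3. Of these markers 10 fell and 0 rose, against 20.8% and 26.2% of all named genes, with a median change of -1.47. PROM1 changed by -1.65, FERMT1 by -2.77 and TMPRSS2 by -0.81, and ESRP1 was under the background mark on all arrays. The actin end difference named above was also highest on control 2 among the control arrays, whereas among the SCA2 arrays it was highest on SCA2 2. The part of epithelial RNA in the values of FABP5, S100A12 and CSF1R was not tested.

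Each gene was also set against a marker list on the same array, by subtracting the mean log2 intensity of the list. These 18 comparisons were chosen after the data were seen. SYK of the B cell list also stands in the list of phagocytic receptors, and CIITA in the dendritic cell list. The B cell list may thus hold RNA of phagocytes, and differences from it do not compare phagocytes with B cells alone. Relative to 14 B cell markers, FABP4 stood at -3.23, -3.14 and -3.55 on SCA2 arrays, against -1.52, -1.76 and -1.58 on control arrays, a difference of -1.69. S100A12 stood at -1.93, -1.74 and -1.48 on SCA2 arrays, against -0.73, 0.46 and -0.10 on control arrays, a difference of -1.59. CD36 stood at -1.49, -1.54 and -1.46 on SCA2 arrays, against -0.63, -0.87 and -0.79 on control arrays, a difference of -0.73. For these 3 genes the groups did not overlap (two-sided exact permutation p = 0.1, adjusted p = 0.225 over the 18 comparisons), so that each stood lower against the B cell markers on every SCA2 array than on any control array. CYBB differed from the B cell markers by -0.07, SPI1 by -0.33 and LYG2 by -0.39, and the groups overlapped (two-sided exact permutation p = 0.7, 0.2 and 0.2). FABP5 (-1.40) and CSF1R (-0.73) overlapped as well, with SCA2 3 inside the control range (two-sided exact permutation p = 0.2 and 0.3). MARCO, close to background on all arrays, stood 1.35 higher against the lowered B cell markers, without overlap.

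**Figure D4:**
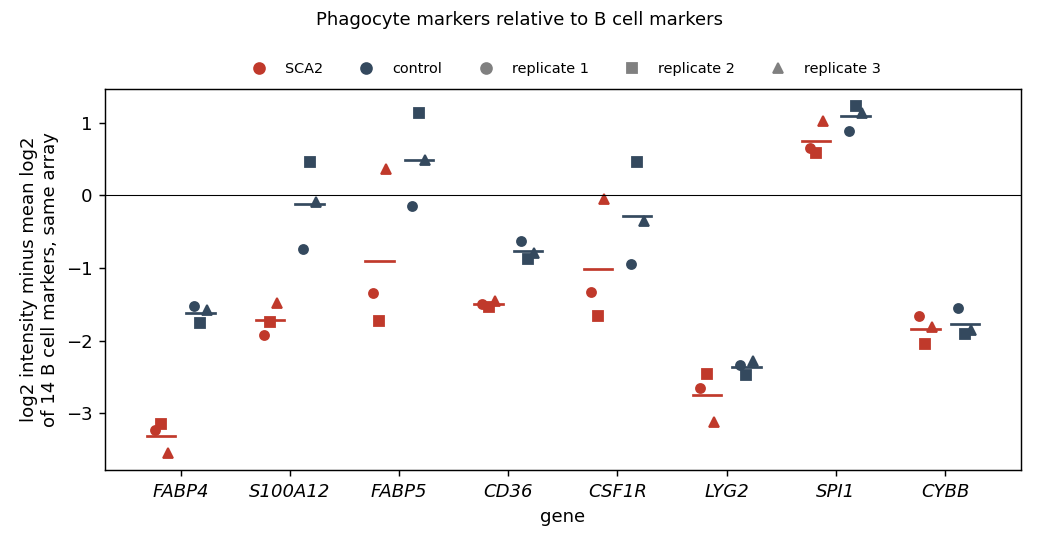
Log2 intensity minus the mean log2 intensity of 14 B cell markers on the same array (y axis), for 8 of the 9 genes (x axis, ordered by the difference; MARCO, close to background, is not drawn). SCA2 arrays are red and left, control arrays dark blue and right, symbols give the replicate and short lines the means; the groups separate for FABP4, S100A12 and CD36 and overlap for the other 5.

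Against the 13 epithelial markers, the groups did not overlap for FABP4 (difference -1.54), S100A12 (-1.45) or FABP5 (-1.26), each with the two-sided exact permutation p = 0.1 (adjusted p = 0.225 over the 18 comparisons). FABP5 stood at 0.85, 0.55 and 1.93 on SCA2 arrays, against 2.19, 2.54 and 2.36 on control arrays. CSF1R (-0.59), CD36 (-0.59), LYG2 (-0.24), SPI1 (-0.19) and CYBB (0.07) overlapped, with two-sided exact permutation p between 0.3 and 0.9. The 13 markers include KRT5, which ran from 4.51 to 9.87 on SCA2 arrays and from 6.75 to 11.59 on control arrays. KRT5 itself was not called, and whether a gene such as CD36 overlaps may depend on this marker. The comparison was not repeated without it. MARCO stood 1.498 higher against the epithelial markers, again without overlap. FABP4 and S100A12 were thus lower without overlap against both marker lists, CD36 against the B cell list and FABP5 against the epithelial list, while MARCO was higher against both. The B cell and epithelial markers themselves had median changes of -1.40 and -1.47. By the subtraction alone, a gene that barely changed stands higher against them and the most lowered genes stand lower. How many of all genes separate in this way was not computed.

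Genes that work with the 9 were read from 8 lists holding 116 measured genes. Of these 49 were called lower, 18 higher and 49 neither, with a median change of -0.27. Over all named genes 20.8% were called lower and 26.2% higher, and each list count given here is to be read beside these shares. The lower counts of the lipid-handling and myeloid transcription factor lists lie not far above the lower share. The lists too were chosen with earlier results of these data known, so their counts are no test of them. In the phagocyte oxidase list 4 of 8 genes fell and 2 rose. The cytosolic subunits NCF4 and NCF1C changed by -1.69 (SE 0.10) and -1.68 (SE 0.12), RAC2, the GTPase of the complex in leukocytes, by -1.66, and the proton channel HVCN1, which balances its charge, by -1.39. CYBA, the membrane partner of CYBB, gave 10.58, 10.72 and 10.62 on SCA2 arrays, against 10.59, 10.92 and 10.75 on control arrays, and did not pass the test (-0.11; limma, Benjamini-Hochberg adjusted p = 0.444). RAC1, which is made in most cells, rose by 0.58, and NOX4, an oxidase of other tissues, by 0.97 with control values under the background mark.

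Among receptors for colony-stimulating factors and their ligands, 2 of 5 genes fell and 1 rose. CSF2RA and CSF3R, receptor chains for CSF2 and CSF3, changed by -1.07 and -0.82, and KIT, the receptor for stem cell factor, by 0.83. Among myeloid transcription factors 3 of 11 fell and 0 rose. MITF, a factor of osteoclasts and pigment cells, changed by -0.99 and RUNX1, which acts with SPI1 in blood formation, by -0.58, while SPIC (-0.50) lay under the background mark. CEBPA (-0.15), CEBPB (0.15) and IRF8 (0.20), which work beside SPI1 in myeloid cells, did not pass the test.

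In the list of scavenger and pattern receptors 5 of 11 fell and 3 rose. LY96, the partner of TLR4 in sensing lipopolysaccharide, had a log2 change of -2.19 (limma, SE 0.11, Benjamini-Hochberg adjusted p = 2.8e-05), with 8.68, 8.75 and 9.01 on SCA2 arrays against 10.95, 11.09 and 10.99 on control arrays. The scavenger receptors COLEC12 and SCARB1 moved the other way, by 2.18 and 1.47, as did SCARB2 by 0.53, and TLR4 was under the background mark on all arrays. MRC1, the mannose receptor, did not pass the test (-0.04). Of 24 lipid-handling genes 7 fell and 2 rose. PPARG, the nuclear receptor that in mammals switches on FABP4 and CD36, had a log2 change of -1.11 (limma, SE 0.10, Benjamini-Hochberg adjusted p = 2.3e-04), with SCA2 values under the background mark. FABP7 (0.68) and the lysosomal lipase LIPA (0.45) rose, while the cholesterol sensor NR1H3 (-0.04) did not pass the test.

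The list of phagocytic receptors and their adaptors had 11 of 19 genes lower and 3 higher. SYK, the kinase behind Fc and B cell receptors, changed by -1.44 (SE 0.09). The genes that rose were ITGB5 (2.26, SE 0.08), MFGE8 (1.11), which bridges dying cells to integrins, and ITGAV (0.86), the integrin chain that pairs with ITGB5. In the list of granule, lysosome and secreted genes 9 of 22 fell and 7 rose. LECT2, a chemotactic protein, changed by -1.82 (SE 0.11) and LYZ, the egg-white type lysozyme, by -1.70 (SE 0.14). Those that rose were S100A10 (0.91), S100A6 (1.00), ANXA1 (0.88), ANXA2 (0.73), CTSK (0.58), GRN (0.41) and MMP2 (0.36). Fibroblasts make these genes too, but which cells gave the rise was not tested. In the list of macrophage core genes 8 of 16 fell and 0 rose, among them TLR7, a sensor of single-stranded RNA (-1.78), CD83 (-1.66) and LAPTM5, a lysosomal protein of leukocytes (-1.26). The other 8 did not pass the test. They were HMOX1, the haem-degrading enzyme (-0.15), CX3CR1 (-0.82), SLC11A1 (-0.17), GPNMB (-0.12), LAMP1 (-0.22), CD86 (0.16), HPGDS (0.09) and TNFAIP2 (0.77).

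**Figure D5:**
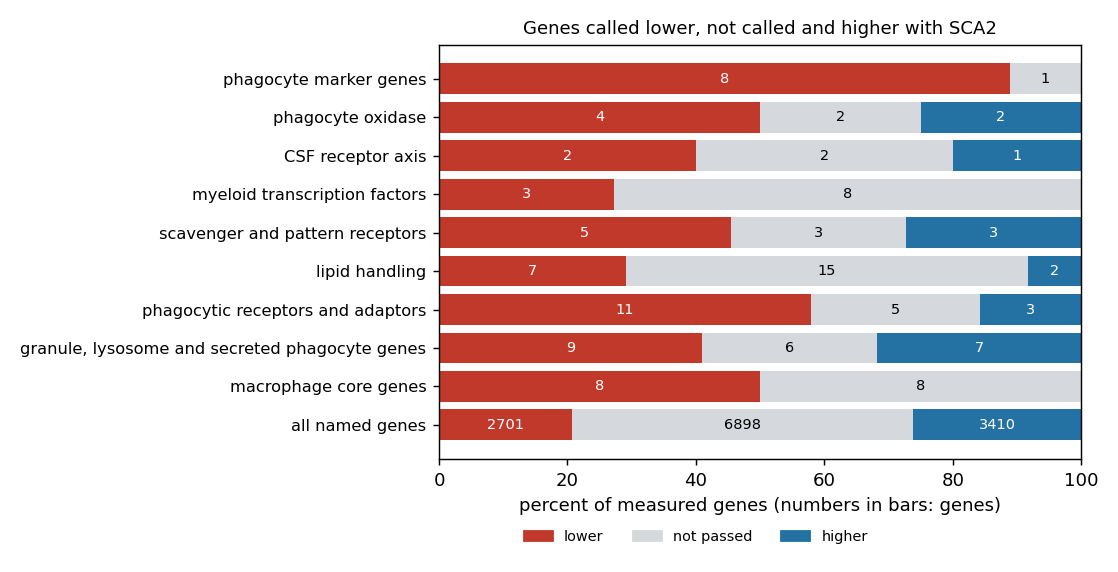
Percent of measured genes (x axis) called lower (red), not called (grey) and higher (blue) with SCA2 in limma, for the 9 phagocyte marker genes, the 8 lists of related genes and all named genes, with the numbers of genes printed in the bars. The lower share is 8 of 9 in the marker genes, 8 of 16 in the macrophage core list and 2701 of 13009 over all named genes.

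Genes whose profile over the 6 arrays was nearest to each of the 9 were sought among 10565 named genes above the background mark, by the root mean square distance of the centred log2 values. FABP5 was followed most closely by CMBL (0.23), AVD, which encodes avidin (0.24), and PTGS2, the inducible cyclooxygenase (0.28). CSF1R was followed by the tight junction gene CLDN1 (0.12), the adhesion molecule gene VCAM1 (0.13) and IL4I1 (0.13). For S100A12 the nearest were ATP6V0D2, a subunit of the vacuolar proton pump (0.07), FERMT1, a kindlin of epithelia (0.18), and the glutathione transferase gene GSTA3 (0.19). SPI1 had the kinase gene LYN (0.05), the cathepsin gene CTSS (0.05) and MYLIP (0.05).

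CD36 was nearest to the kinase gene MAP3K1 (0.07), TRIM39.2 (0.08) and CIITA, the activator of class II genes (0.09). LYG2 was nearest to AvBD7, an avian defensin (0.07), the nuclear receptor gene RORA (0.09) and LECT2 (0.11). CYBB was nearest to JARID2 (0.06), C3AR1L (0.07) and TBC1D30 (0.07). FABP4 was nearest to UGT1A1 (0.24), LOC395551 (0.25) and LY6CLEL (0.27), distances like those of FABP5. MARCO was nearest to WDYHV1 (0.06), MCC (0.07) and VTCN1 (0.08), which did not pass the test. None of the 9 was among the 3 nearest genes of another.

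Markers of other cells that can carry these genes moved with the groups too, and their part in the results was not tested. SYK, CIITA, CD83, CSF3R and PPARG are among the genes that stand in more than 1 list. Over all named genes 20.8% were called lower and 26.2% higher, and every marker count below is to be read beside these shares. B cell markers had 13 of 14 genes lower and 0 higher, with summed intensities of 26770 to 31211 on SCA2 arrays and 55318 to 56914 on control arrays. PLCG2 (-1.53), CR2 (-1.85) and BTK (-1.63) had the smallest p-values, and 0 of the 14 lay under the background mark on all arrays. T and NK cell markers had 9 of 11 lower and 1 higher, with sums of 3753 to 3911 on SCA2 arrays and 9113 to 10732 on control arrays. CD3D (-1.54), CD247 (-1.67) and TARP (-1.39) had the smallest p-values, and UBASH3A rose by 0.65. Of the heterophil markers 3 of 11 were measured under their listed names, and 2 fell, CTSG (-1.25) and CSF3R (-0.82). MMP9 (-2.38) did not pass the test and varied widely inside both groups. S100A9, also on this list, is another name of S100A12, one of the 9 genes, and was not counted again. Sums of the 3 were 205 to 469 on SCA2 arrays and 440 to 2645 on control arrays, with MMP9 the brightest on every array. Dendritic cell markers had 6 of 11 lower and 0 higher, with the smallest p-values for HAVCR1 (-1.68), CIITA (-1.89) and CD83 (-1.66). CIITA is also in the B cell list and CD83 in the macrophage core list. ZBTB46 (0.06), IRF8 (0.20) and ZNF366 (-0.35) did not pass the test, and XCR1 and CCR7 lay under the background mark on all arrays. Sums were 2803 to 3178 on SCA2 arrays and 6956 to 7673 on control arrays.

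Erythroid and thrombocyte markers had 9 of 11 lower and 0 higher, with sums of 25326 to 26359 on SCA2 arrays and 34787 to 38605 on control arrays. CA2 changed by -1.05, F13A1 by -1.42 and SLC4A1 by -0.99, and GP9 lay under the background mark on all arrays. Adipocyte markers, which bear on FABP4 and CD36, had 4 of 12 lower and 2 higher, with a median of -0.15. Their sums were 2947 to 3231 on SCA2 arrays and 2426 to 2573 on control arrays. Most of these sums came from FASN, with mean log2 intensities of 11.33 on SCA2 arrays and 10.76 on control arrays. The 4 lowered markers were RBP7, a retinol-binding protein (-2.33), ADIPOQ (-1.52), PPARG (-1.11) and CIDEC, a lipid droplet protein (-0.76). FASN (0.57) and SCD (0.65) rose, and LPL and PCK1 were under the background mark on all arrays. Endothelial markers had 1 of 15 lower (ESAM, -0.29) and 5 higher, among them FLT1 (1.90), LYVE1 (1.5) and CDH5 (1.63). This higher count lies not far above the 26.2% of all named genes called higher. The median change of the 15 was -0.26, and 9 did not pass the test, among them PECAM1 (-0.62) and VWF (-0.56). Sums were 8412 to 8763 on SCA2 arrays and 3715 to 3753 on control arrays. The bright probe sets of ERG, FLT1 and CDH5, which rose, weighed most in these sums. ROBO4 and TEK lay under the mark on all arrays. Markers of fibroblasts and the DF-1 monolayer had 14 of 19 higher and 2 lower, with sums of 60181 to 61308 on SCA2 arrays and 37322 to 37904 on control arrays. COL6A2 (1.91), SPARC (1.82) and THY1 (1.83) had the smallest p-values among those that rose, POSTN (-1.62) and FN1 (-0.29) were lower, and LOX was under the mark on all arrays.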

How the data were processed

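The intensity values, 1 per probe set and array, were deposited by the authors and were made with RMA per the submitters' processing notes, with version and settings not given in the sources used here. They ran from 4.28 to 20715, a linear scale, so log2 was taken. Of 38535 probe sets 96 array controls were left out, and no filter was set on the other 38439. The deposited table was the only file.

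Symbols came from the platform annotation, updated by gene identifier, for 27168 probe sets with 1 symbol (26853 matched RefSeq). Of the rest, 177 had several symbols and 11094 none. The comparison was fitted with limma 3.58.1 (lmFit and eBayes, group as the only term) in R 4.3.3, with Benjamini-Hochberg adjustment over 38439 probe sets at 0.05. Changes are SCA2 minus control, with moderated standard errors. A gene is given by its probe set of highest mean. Lists are described by counts and medians. Figures used Python 3.11.15 and matplotlib 3.10.9.

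Named genes were the 9 with all their probe sets, the 3 nearest genes of each, up to 3 called genes of smallest p in each list, those called against a list's direction, and markers under the background mark. Any other gene was picked with its values in view. The members and lists were chosen with earlier results of these data known. On simulated arrays of 38439 probe sets with 200 changed, the fit recovered 76% of 1-unit and 95% of 2-unit log2 changes, with 8 false calls. The simulated noise was independent between probe sets. In the data far more probe sets were called (6565 lower and 6992 higher) and genes varied together, so these shares need not hold there. The sample titles call the arrays of each group biological replicates 1 to 3, but nothing says that the cultures came from separate birds. The p-values measure the spread between these arrays, which may be technical, and precision is limited by how few arrays there are. The labels give no batch, so batch and group cannot be told apart. Probe sequences were not used here, and RefSeq positions served only to find which genes neighbour each other.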

Additional observations from a re-analysis of the deposited data

How the results depend on the processing

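The calls were recomputed under 19 other settings, and over the 9 genes 158 of 170 pairs of gene and setting kept direction and side of the threshold. CD36, LYG2, S100A12, SPI1, CYBB and FABP4 did so under all of theirs, which for FABP4 gave changes between -3.04 and -2.90 and for CYBB between -1.49 and -1.21. Between 6 and 8 genes were called lower and 0 higher under every setting; leaving out 1 array at a time gave 7 to 8 genes and 10 to 12 probe sets. CSF1R lost its call in 8 settings, among them the unmoderated model (adjusted p = 0.112), the variance trend with a robust fit (0.0681) and array weights (0.0510), and FABP5 in 3 (0.0834 in the unmoderated model, 0.0530 with the trend, and the threshold of 0.01). Their adjusted p-values (limma, Benjamini-Hochberg) ranged from 0.0044 to 0.112 and from 0.0014 to 0.0834, and the cause was not tested. The lowest value of CSF1R came from the setting without SCA2 3 and control 2, arrays chosen by the values of these genes. Its lowest value under a planned setting was 0.0052, without SCA2 3 (limma, Benjamini-Hochberg). MARCO changed sign without control 1 (between -0.040 and 0.24 with 1 array left out), was not called under any setting, and was not tested under a filter at the median intensity, which it did not reach.

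Over all probe sets, lower calls numbered 3702 at a threshold of 0.01, and 3897 lower and 4544 higher without SCA2 3 and control 2, a setting added after seeing the data, against 6565 and 6992. Leaving out 1 array gave 4497 to 6335 lower and 5378 to 6748 higher. With the replicate block, 6913 were lower and 7618 higher and 8 of the 9 genes stayed lower. Deviations of same-numbered arrays correlated at 0.41, 0.12 and 0.04. SCA2 1 and SCA2 2 correlated best with the control array of the same number, and SCA2 3 with control 2 (0.33). Deviations within so few arrays cannot decide whether same-numbered cultures were prepared together, and the labels give no more than the number. Quantile, median and cyclic loess scaling each left 8 genes lower, but each evens out again arrays that RMA had already scaled. They could not show a shift shared by most genes, and scaling to the spiked controls was not run. MARCO lay close to the background mark, where signal limits what size of change can be measured.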
